A study of Mus musculus with 6 samples.

Results

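The genes described here are 41 genes of the type I interferon response and of nucleic acid sensing, taken by gene symbol from a fixed list in order to check for an innate response to transfected hairpin vectors. A gene counted as measured where the deposited table held at least 1 transcript cluster with this symbol and no other in the array annotation. Clusters of the same gene were averaged. This held for 34 of the 41 genes, out of 16583 genes tested in all. The other 7 (Ifit1, Ifit2, Ifit3, Ifi44, Isg15, Mx1 and Mx2) are not analysed here. For Isg15 the annotation gave a cluster that it shares with a second gene name. For the rest no such cluster was in the table, whose filtering is not given in the sources used here.

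All 6 samples were of Neuro2a, a mouse neuroblastoma cell line. Each was labelled with a vector: 3 an empty vector and 3 vectors for microRNA-based RNA interference against Usf1 and Usf2 (label USF1,2-RNAi). Per the labels' protocols the interference vectors were built in pcDNA6.2-GW/EmGFP-miR and introduced with Lipofectamine 2000. The sources used here do not give the time after transfection. No untransfected cells are among the 6 samples, so the comparison sets hairpin vectors against an empty vector and does not read the effect of transfection itself. Samples of a group are labelled biological replicates, but not whether they grew as separate cultures, so the spread that the p-values use may be technical. RNA was read on Affymetrix Mouse Gene 1.0 ST arrays, with 1 array for each sample.

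Cells detect foreign nucleic acid with cytosolic helicases such as RIG-I (gene Ddx58) and MDA5 (gene Ifih1), with endosomal Toll-like receptors such as TLR3, and with the Z-form sensor ZBP1. The helicases signal through the mitochondrial adaptor MAVS and the kinase TBK1 to the factors IRF3 and IRF7, which switch on interferon genes. Secreted interferon binds the receptor IFNAR1-IFNAR2 and activates a complex that holds STAT2 and IRF9. That complex binds interferon-stimulated response elements and induces antiviral effectors, chemokines and antigen presentation genes. Long double-stranded RNA is a known trigger of this response, and expressed hairpins can act as one.

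The response element was searched in the RefSeq promoter windows of assembly GRCm38.p6 as GAAA, any 2 bases and GAAA again, on both strands, in 300 bases per start (250 before it and 50 from it on). The E-box CACGTG, the sequence bound by USF proteins, was searched in the same windows and reads the same on both strands. The table held windows for 32 of the 41 listed genes, 27 of them measured. Mx1, Mx2, Oas2, Usp18, Dhx58, Zbp1, Ccl5, Parp9 and Parp14 had no entry. The response element was found for 8 of the 27 measured genes (B2m, Bst2, Cxcl10, Ddx58, Ifih1, Oas3, Rsad2 and Stat2), against 3.99% of the 27025 genes in the table. It was also found for Ifit1, Ifit3 and Isg15, which are not analysed here. The E-box was found for 2 of the 27, Tbk1 and Trim25, against 8.09% of all genes in the table. A match is a description of the letters and not a site shown to be bound.

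Sequences are shown for genes with a motif and values on every array below (Cxcl10, B2m, Ddx58, Ifih1 and Tbk1), and for Trim25, which shares the E-box with Tbk1. They run 5′ to 3′ on the gene's strand, with the motif in capitals. Isg15, without a value here, is shown as the textbook example. The first 4 are the 250 bases before the start, at chr4:156200819-156201068 (minus strand) for Isg15, chr5:92348890-92349139 (minus) for Cxcl10, chr2:122147437-122147686 (plus) for B2m and chr11:88999153-88999402 (plus) for Trim25. The last 3 are 30 bases around a motif that lies after the start, at chr4:40239804-40239833 (minus) for Ddx58, chr2:62646206-62646235 (minus) for Ifih1 and chr10:121586770-121586799 (minus) for Tbk1.
Isg15: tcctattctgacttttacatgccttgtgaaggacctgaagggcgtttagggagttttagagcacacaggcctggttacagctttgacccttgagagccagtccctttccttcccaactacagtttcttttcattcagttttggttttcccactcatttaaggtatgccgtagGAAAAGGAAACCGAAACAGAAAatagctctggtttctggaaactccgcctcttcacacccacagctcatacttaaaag
Cxcl10: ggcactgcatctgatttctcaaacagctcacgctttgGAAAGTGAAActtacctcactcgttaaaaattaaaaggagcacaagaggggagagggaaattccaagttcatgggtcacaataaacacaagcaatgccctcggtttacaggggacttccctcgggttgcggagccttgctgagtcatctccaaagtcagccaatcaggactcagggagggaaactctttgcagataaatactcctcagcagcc
B2m: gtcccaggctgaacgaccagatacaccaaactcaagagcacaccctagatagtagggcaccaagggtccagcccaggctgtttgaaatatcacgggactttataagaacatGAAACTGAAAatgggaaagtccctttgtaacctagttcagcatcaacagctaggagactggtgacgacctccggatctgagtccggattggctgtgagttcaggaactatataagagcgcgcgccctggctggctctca
Trim25: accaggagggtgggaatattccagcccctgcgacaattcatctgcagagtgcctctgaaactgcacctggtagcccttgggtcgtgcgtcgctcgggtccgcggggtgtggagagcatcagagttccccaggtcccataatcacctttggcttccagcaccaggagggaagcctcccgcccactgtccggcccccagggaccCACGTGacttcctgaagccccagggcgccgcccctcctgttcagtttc
Ddx58: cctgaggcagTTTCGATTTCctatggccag
Ifih1: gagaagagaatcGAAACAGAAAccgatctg
Tbk1: cgcactcggtCACGTGctccgtggcccggg
In Isg15 3 matches to the letters of the response element overlap, starting 78, 72 and 66 bases before the start. Cxcl10 and B2m have 1 each, 213 and 139 bases before the start. The E-box of Trim25 begins 48 bases before the start, and that of Tbk1 at base 6 counted from the start.

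Levels were not kept in the deposited table. Each value is a log2 signal relative to the cluster's own median over the 6 arrays, which allows comparison of a gene across arrays but not of a gene with another gene. The rounding of the numbers still told whether a cluster had been dimmer (4 to 8 on the log2 scale) or brighter (8 to 16) before that centring. The brighter class held 7318 of all 16583 genes. Of the 34 genes it held 11: Mavs, Tbk1, Trim25, Ifnar1, Ifnar2, Irf1, Stat2, Ifi35, Adar, Cxcl10 and B2m. The other 23 were dimmer, among them all 5 sensors and 11 of the 13 measured effectors. By chance about 3.12% of dim clusters fall in the brighter class where 6 arrays could be used, and 12.5% where 4 could, as for B2m. Olfactory receptor genes, silent in most cells and used here as a reference for dim probes, had 7 of 229 in the brighter class. Neuronal and neuroblastoma markers were brighter in 8 of 10 measured, among them Tubb3, Stmn2, Phox2a and Hand2. Macrophage and blood markers were brighter in 0 of 7, fibroblast markers in 0 of 7 and endothelial markers in 1 of 6 (Kdr).

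The arrays differed in spread. The standard deviation over all genes was 0.0514 to 0.0723 on 5 arrays and 0.145 on knockdown array 2. On that array the dimmer class was shifted upward, with a median of 0.08 over 9265 dimmer genes and 0.16 over the olfactory receptors, each relative to the empty vector mean, while the brighter class had -0.04. The olfactory receptors had -0.06 on knockdown array 3. The labels were checked on the targets. On the log2 scale Usf1 was at 0.18, 0.32 and 0.43 on empty vector arrays 1, 2 and 3 and at -0.28, -0.18 and -0.26 on knockdown arrays 1, 2 and 3. Usf2 was at 0.12, 0.28 and 0.27 and at -0.22, -0.13 and -0.12. The groups did not overlap for either target, with an exact two-sided permutation p of 0.1, the smallest that 3 against 3 arrays can give. The limma adjusted p over all genes was 0.32 for Usf1 and 0.348 for Usf2, so neither target passed a threshold of 0.05.

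Knockdown against empty vector compared cells that differ in the hairpins and also in the signal of Usf1 and Usf2. No hairpin vector against another target is among the 6 samples. An effect of hairpins on the interferon pathway and an effect of lower Usf1 and Usf2 therefore cannot be told apart. None of the 34 genes was called in limma over all 16583 genes. Usf1 and Usf2 were not called either, so a missing call does not show that a gene did not change. At an adjusted p of 0.05, 0 of 34 passed, where 0.00603% of all genes did (1 gene). At an unadjusted p of 0.05, 0 of 34 passed too, where 4.25% of all genes did, 1.6% higher and 2.65% lower. The smallest unadjusted p in limma was 0.0572, for Oasl2, and the smallest adjusted p was 0.996. Changes ran from -0.06 (Dtx3l) to 0.16 (Irf7) on the log2 scale, and the median standard error was 0.05. The upper end of the 95% interval lay below 1.3-fold for all 34 genes, a bound that 99% of all genes met, and the highest was 1.253-fold, for Irf7. The count under 1.3-fold was added after the data were seen. The lowest interval end was 0.853-fold, for Oas2. An array can compress a fold, so these bounds hold for the array signal and not for transcript number. For the 23 dimmer genes a probe set near its background may also not follow the transcript. With weights on the arrays 3 of the 34 passed (Ddx58, Irf7 and Tlr3), where 6.7% of all genes passed in the same fit, which gave knockdown array 1 a weight of 33 and the other knockdown arrays 0.136 and 0.441.

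**Figure D1:**
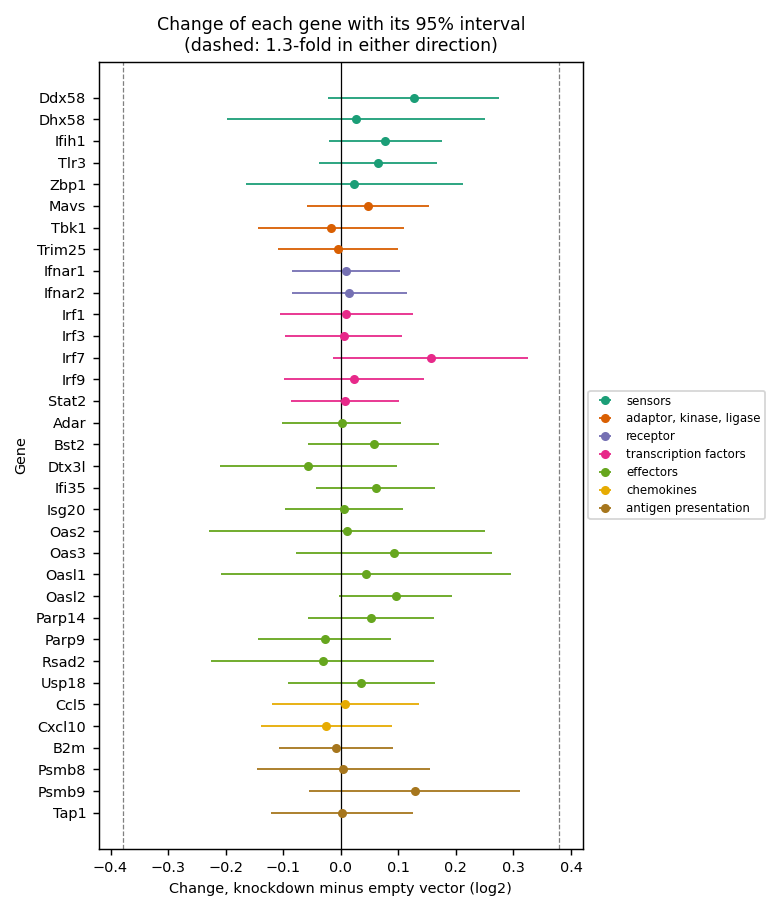
Log2 change after knockdown of each of the 34 measured genes, with the 95% interval from limma, coloured by role, and dashed lines at 1.3-fold in either direction. All 34 intervals include 0 and lie within the dashed lines.

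Most changes were small and above 0, a count added after the data were seen. Of the 34, 27 were above 0 and 7 below, with a median of 0.01, while 49.6% of all genes were above 0 and the median of all genes was -6.6e-04. Among the 23 dimmer genes 20 were above 0 (median 0.03), against 56.6% of all dimmer genes (median 0.01). Among the 11 brighter genes 7 were above 0 (median 0.0074), against 40.7% of all brighter genes (median -0.01). Without knockdown array 2 the count above 0 was 24 of 34 against 44.1% of all genes. With each array centred within its brightness class it was 23 against 47%.

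By array, the median of the 23 dimmer genes against the empty vector mean was 0.02, 0.08 and 0.02 on knockdown arrays 1, 2 and 3. That of all dimmer genes was -0.0069, 0.08 and -0.03, so on knockdown array 2 the 2 medians were nearly the same. The part of the upward shift of dim probes on that array in these changes was not tested. The 11 brighter genes had 0.02, -0.02 and 0.02. Knockdown array 2 was the array farthest from the median for 17 of the 34 genes, where this was so for 46.4% of all genes.

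**Figure D2:**
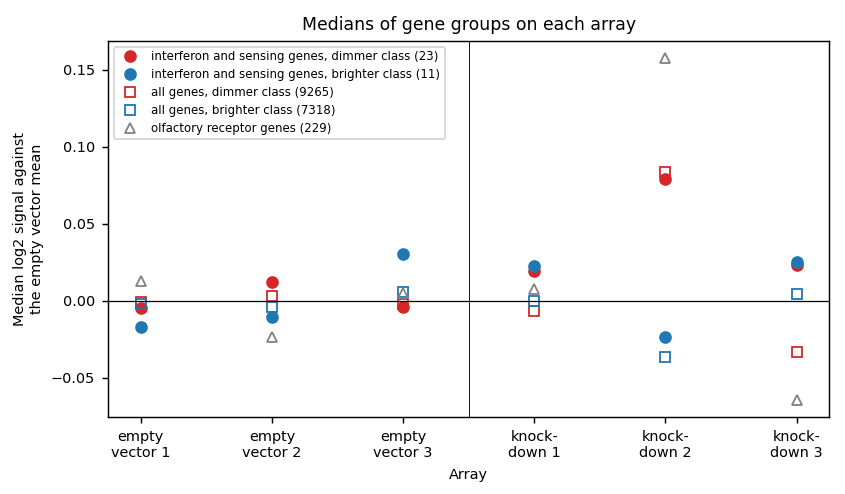
Median log2 signal relative to the empty vector mean, on each of the 6 arrays, for the 23 dimmer and 11 brighter interferon and sensing genes (filled), for all genes of each class (squares) and for 229 olfactory receptor genes (triangles). On knockdown array 2 the dimmer interferon and sensing genes sit with all dimmer genes at 0.08.

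**Figure D3:**
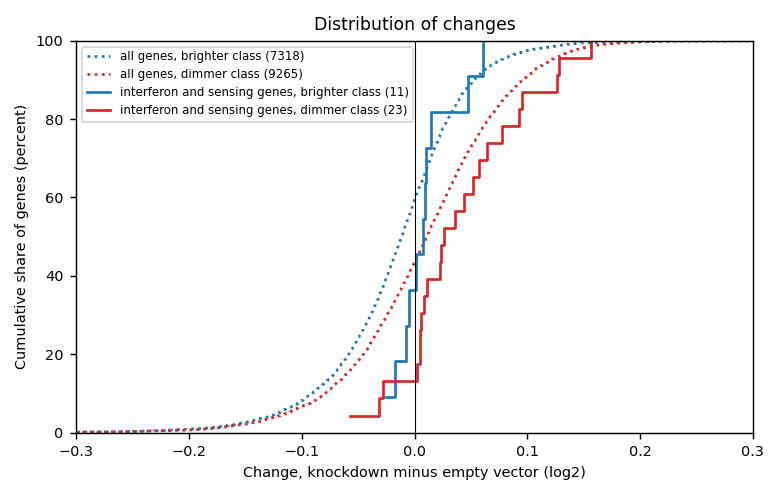
Cumulative share of genes in percent against the log2 change after knockdown for interferon and sensing genes (solid lines) and all genes (dotted lines) of each brightness class. The dimmer interferon and sensing genes have a median of 0.03 and all dimmer genes 0.01.

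The 5 sensors, all in the dimmer class, were slightly above 0 and none passed. Of all dimmer genes 56.6% were above 0. Ddx58 (cluster 10512067), the helicase RIG-I, was at -0.10, 0.0078 and -0.0078 on empty vector arrays 1, 2 and 3 and at 0.14, -0.03 and 0.17 on knockdown arrays 1, 2 and 3. Knockdown arrays 1 and 3 were above every empty vector array and knockdown array 2 lay among them. The change of 0.13 ± 0.06 (SE) was 1.09-fold, with a 95% interval of 0.985 to 1.21 and a limma adjusted p of 0.996. Ifih1 (cluster 10483110), the helicase MDA5, was at -0.02, -0.01 and -0.06 with empty vector and at 0.01, 0.09 and 0.04 with knockdown. All 3 knockdown arrays were above all 3 empty vector arrays, by a mean of 0.08 ± 0.04 (SE) or 1.06-fold. Tlr3 (cluster 10578493), the endosomal receptor for double-stranded RNA, had the same order, with -0.03, -0.0086 and -0.0078 against 0.11, 0.03 and 0.0078 and a change of 0.06 ± 0.04 (SE). Groups that did not overlap in this direction were found for 3 of the 34 genes (Oasl2, Ifih1 and Tlr3), where 4.33% of all genes had them, and in the other direction for 0 of 34, where 5.95% did (10.3% in either direction). Dhx58, the helicase LGP2 that modulates the other helicases, scattered in both groups, from -0.12 to 0.16 with empty vector and from -0.10 to 0.21 with knockdown, and its change was 0.03 ± 0.10 (SE). Zbp1 ranged from -0.07 to 0.04 and from -0.14 to 0.19, with a change of 0.02 ± 0.08 (SE).

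**Figure D4:**
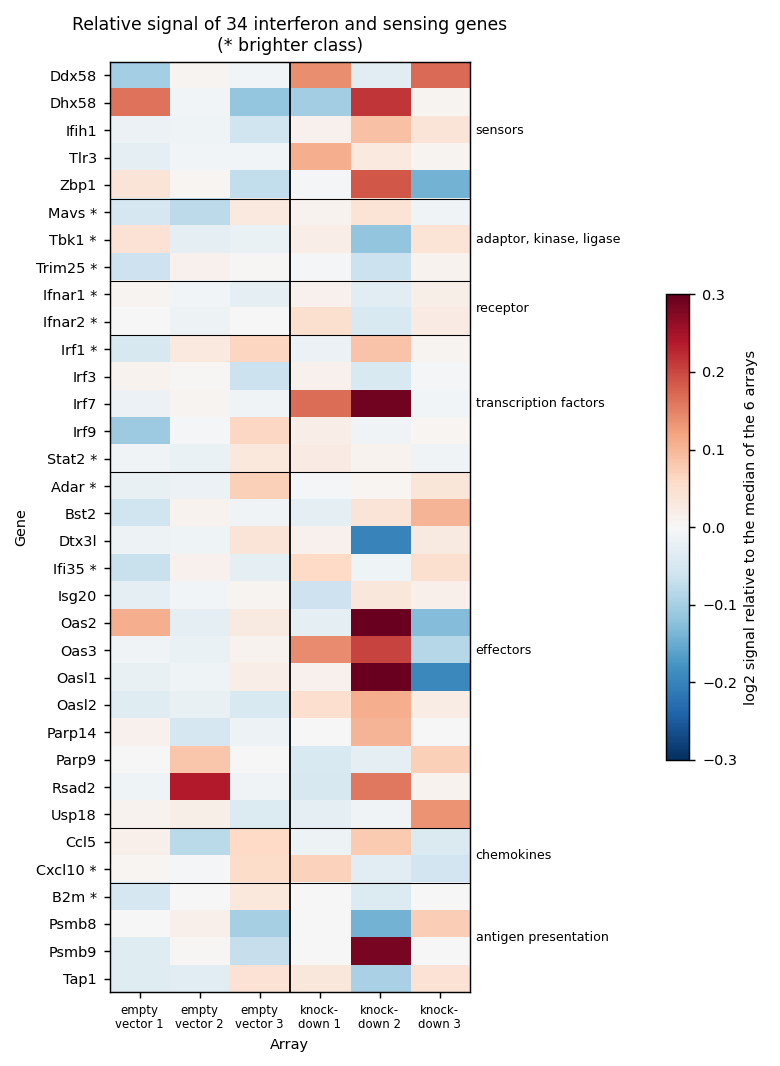
Relative log2 signal of the 34 measured genes on the 6 arrays, grouped by role, with the genes of the brighter class marked by an asterisk. The strongest colours are on knockdown array 2, where Oas2 and Oasl1 are at 0.30 and Dtx3l is at -0.20.

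The signalling genes below the sensors were in the brighter class and none of the 3 passed the test. Mavs (cluster 10476276), the adaptor, was at -0.05, -0.08 and 0.03 on the empty vector arrays and at 0.01, 0.04 and -0.01 on the knockdown arrays. The groups overlapped, and the change of 0.05 ± 0.05 (SE) was 1.03-fold with an interval of 0.96 to 1.11. Tbk1 (cluster 10372853), the kinase of IRF3, was at 0.04, -0.03 and -0.02 with empty vector and at 0.02, -0.12 and 0.04 with knockdown. Knockdown array 2 was the lowest of the 6 and the other knockdown arrays lay within the range of the empty vector arrays. Its change was -0.02 ± 0.05 (SE), 0.988-fold with an interval of 0.905 to 1.08, and 0.03 without knockdown array 2. Trim25, the ubiquitin ligase that activates RIG-I, had a change of -0.0049 ± 0.04 (SE) and an interval of 0.927 to 1.07. Tbk1 and Trim25 are the genes whose windows hold the E-box printed above, and for both the change was smaller than its standard error.

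The receptor subunits varied little between arrays. Ifnar1 (cluster 10436849) was at 0.0075, -0.0075 and -0.03 on the empty vector arrays and at 0.01, -0.03 and 0.02 on the knockdown arrays. Its change was 0.0090 ± 0.04 (SE), with a fold interval of 0.943 to 1.07. Ifnar2 had a change of 0.02 ± 0.04 (SE), with an interval of 0.943 to 1.08. The groups of both subunits overlapped.

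Among the transcription factors, Irf7 (cluster 10569102), the factor that amplifies interferon production and is itself induced by interferon, had the largest change of the 34 genes. It was at -0.02, 0.0083 and -0.01 on the empty vector arrays and at 0.17, 0.29 and -0.0083 on the knockdown arrays. Knockdown arrays 1 and 2 were above every empty vector array, while knockdown array 3 lay within them. The change of 0.16 ± 0.07 (SE) was 1.11-fold, with an interval of 0.991 to 1.25 and a limma adjusted p of 0.996. It was 0.09 without knockdown array 2 and 0.24 without knockdown array 3. With arrays centred within their brightness class it was 0.14. Irf3, present before induction, had a change of 0.0053 ± 0.04 (SE), Irf9 0.02 ± 0.05 and Stat2 0.0074 ± 0.04. Irf1, a factor induced by interferon gamma, was read by 2 clusters that disagreed on knockdown array 2, at 0.30 (cluster 10385870) and -0.13 (cluster 10376060). Their changes were 0.09 ± 0.09 and -0.07 ± 0.06 (SE), and the mean of both gave 0.0099 ± 0.05.

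The induced effectors, which report interferon action most directly, had changes of -0.06 to 0.10. Of the 20 listed, 13 were measured, 11 of them in the dimmer class. All 7 genes of the 41 that were not measured have this role. Among the 13, 10 were above 0 and 3 below, and none passed. The share above 0 was 56.6% over all dimmer genes and 40.7% over all brighter genes. Oasl2 (cluster 10524621), of the family related to the oligoadenylate synthetases, was at -0.04, -0.02 and -0.05 on the empty vector arrays and at 0.05, 0.11 and 0.02 on the knockdown arrays. The groups did not overlap, and the change of 0.10 ± 0.04 (SE) was 1.07-fold with an interval of 0.997 to 1.14. Oas3 was at 0.14 and 0.20 on knockdown arrays 1 and 2 and at -0.09 on knockdown array 3, against -0.02 to 0.01 with empty vector, a change of 0.09 ± 0.07 (SE). Oas2 and Oasl1 went in opposite ways on knockdown arrays 2 and 3, each at 0.30 on array 2 and at -0.13 and -0.19 on array 3. Their changes were 0.01 ± 0.10 and 0.04 ± 0.11 (SE), with the widest intervals of the list. Of these 4 genes Oasl2 alone had all 3 knockdown arrays above 0. Rsad2, the antiviral enzyme viperin, had its highest value on an empty vector array, 0.24 on array 2, with 0.16 on knockdown array 2 and -0.05 to 0.01 on the other 4 arrays. Its change was -0.03 ± 0.08 (SE).

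Of the other effectors, Bst2, the membrane tether of budding viruses, had a change of 0.06 ± 0.05 (SE), and Usp18, the protease that removes ISG15 and dampens signalling, 0.04 ± 0.05. Isg20, an exonuclease that degrades RNA, was at 0.0054 ± 0.04. In the brighter class, Ifi35 was at 0.06 ± 0.04 and Adar, the adenosine deaminase that edits double-stranded RNA, at 0.0013 ± 0.04. Parp9 and Dtx3l, whose proteins form a complex with ubiquitin ligase activity, had changes of -0.03 ± 0.05 and -0.06 ± 0.07 (SE). Dtx3l was at -0.20 on knockdown array 2 and between -0.01 and 0.04 on the other 5 arrays. Parp14, of the same family as Parp9, was at 0.05 ± 0.05.

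Neither chemokine passed the test, and for both the change was smaller than its standard error. Cxcl10 (cluster 10531415), which attracts T cells and is among the most inducible genes of the pathway, was at 0.0057, -0.0057 and 0.06 on the empty vector arrays and at 0.07, -0.03 and -0.06 on the knockdown arrays. The groups overlapped, with the highest and the lowest value both on knockdown arrays. The change of -0.03 ± 0.05 (SE) was 0.983-fold with an interval of 0.908 to 1.06. Ccl5 had a change of 0.0081 ± 0.05 (SE) and an interval of 0.921 to 1.1.

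None of the 4 antigen presentation genes passed the test. B2m (cluster 10475414), the light chain of MHC class I, was at -0.05, 0.0011 and 0.03 on the empty vector arrays and at 4.2e-04, -0.04 and -4.2e-04 on the knockdown arrays. The knockdown arrays lay within the range of the empty vector arrays, and the change of -0.0078 ± 0.04 (SE) had a fold interval of 0.929 to 1.07. Psmb9 (cluster 10450145), an immunoproteasome subunit, was at -0.04, 0.0039 and -0.07 with empty vector and at -0.0023, 0.28 and 0.0023 with knockdown. Knockdown array 2 was alone high, and the change of 0.13 ± 0.08 (SE) was 0.03 without it. Tap1, the peptide transporter, starts 226 bases from Psmb9 on the opposite strand at chromosome 17, so that 275 bases are common to both promoter windows. On knockdown array 2 Tap1 was at -0.10, where Psmb9 was at 0.28. The change of Tap1 was 0.0019 ± 0.05 (SE). Psmb8, the other immunoproteasome subunit in the list, had a change of 0.0045 ± 0.06, with -0.14 on knockdown array 2.

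Genes with and without the response element overlapped in their changes. The 8 measured genes with the response element had a median change of 0.03 (range -0.03 to 0.13), with 5 above 0 and 3 below. The 19 with a window but without these letters had 0.0099 (range -0.06 to 0.16), with 16 above 0 and 3 below. No test was made.

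Other genes of the pathway, from lists drawn up by role with earlier results of these data known, gave no call at an adjusted p of 0.05 in limma. Of the interferons and cytokines, 11 measured of 14 listed and all 11 in the dimmer class, 1 gene was past an unadjusted p of 0.05, with a list median of -0.06. It was Ifng, interferon gamma, at 0.04, 0.15 and 0.02 on the empty vector arrays and at -0.02, -0.04 and -0.09 on the knockdown arrays, all below the empty vector arrays, with a change of -0.12 ± 0.05 (SE). Of receptors, JAK-STAT kinases and feedback genes, 16 of 17 measured, 0 were past that mark, with a median of -0.0071. Among other nucleic acid sensing genes, 20 of 26 measured, 1 was higher and 0 lower, with a median of -0.02. It was Unc93b1, the chaperone of endosomal Toll-like receptors, at -0.11, -0.04 and -0.04 on the empty vector arrays and at 0.04, 0.08 and 0.09 on the knockdown arrays, a change of 0.13 ± 0.04 (SE) or 1.09-fold. The kinase PKR (gene Eif2ak2), itself a sensor of double-stranded RNA, was at -0.0016 ± 0.09.

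The NF-kB arm, 10 of 12 measured, had 0 past the mark and a median of -0.02. Other interferon-stimulated genes, 26 of 38 measured, had 0 higher and 1 lower, with a median of 0.0020. The lower one was Lgals3bp, a secreted galectin-binding protein that interferon can induce, at 0.12, 0.27 and 0.28 with empty vector and at -0.19, -0.26 and -0.12 with knockdown. The groups did not overlap, and the change was 0.753-fold (-0.41 ± 0.06, SE, limma adjusted p = 0.348). It was known from earlier results of these data. Other antigen presentation genes, 10 of 13 measured, had 0 higher and 1 lower, with a median of 0.0020. It was Erap1, a peptidase that trims peptides for MHC class I, at 0.04, 0.03 and 0.05 with empty vector and at -0.03, -0.29 and -0.07 with knockdown, lowest on knockdown array 2, a change of -0.17 ± 0.07 (SE). Over these 6 lists 1 gene was higher and 3 were lower by that measure, 4.3% of the 93 measured, where 4.25% of all genes passed it. Changes were above 0 for 5 of 11 interferons and cytokines and 5 of 20 other nucleic acid sensing genes. The same held for 7 of 16 receptors, JAK-STAT kinases and feedback genes and 4 of 10 genes of the NF-kB arm. It held for 13 of 26 other interferon-stimulated genes and 5 of 10 other antigen presentation genes, where 49.6% of all genes were above 0. The neuronal and neuroblastoma markers, 8 of 10 in the brighter class, had a median change of 0.01 (6 of 10 above 0). Their groups did not overlap for 2 higher and 2 lower genes. Only Elavl4 was past the unadjusted mark of 0.05. It was at 0.03, 0.08 and 0.09 with empty vector and at -0.07, -0.07 and -0.03 with knockdown, a change of -0.13 ± 0.04 (SE). Markers of cell types other than neuroblastoma were mostly above 0, as were the 34 genes. Macrophage and blood markers had a median change of 0.06 (7 of 7 above 0), and on knockdown arrays 1, 2 and 3 medians of 0.09, 0.08 and -0.02. Fibroblast markers had 0.07 (6 of 7) and endothelial markers 0.05 (6 of 6), each highest on knockdown array 2, at 0.25 and 0.12. The olfactory receptors had 0.03 (153 of 229). Apart from 7 olfactory receptors and Kdr, the macrophage, fibroblast, endothelial and olfactory receptor sets lie in the dimmer class. Of all dimmer genes 56.6% were above 0. The part of these sets in the results was not tested.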

How the data were processed

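Neuro2a RNA from 6 samples was made into labelled cDNA with kits from Ambion and Affymetrix, per the labels' protocols. The deposited table of the authors gives log2 values of 22891 transcript clusters on 6 arrays, each relative to its cluster's median (largest absolute median 5e-07). How background, normalization and filtering were done is not given in the sources used here. The log2 scale is a reading: array differences fell on a grid (tolerance 0.05) of 4.77e-07 or 9.54e-07, the float spacing of numbers in 4 to 8 and in 8 to 16. The same grid gave the brightness classes (15 clusters unknown). A gene counted as brighter where all its clusters were brighter, and every other gene counted as dimmer. Values below 0.001, given to 3 digits, were left out of it.

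The platform annotation gave 1 gene symbol for 18087 clusters, several for 1145 and none for 3659. Genes were compared with limma 3.58.1 (lmFit, eBayes; R 4.3.3) on all 6 arrays, with 4 residual and 3.79 prior degrees of freedom and p-values adjusted by Benjamini-Hochberg over all genes (threshold 0.05). Folds are the log2 changes converted back, and precision is limited by the number of arrays. The fit was tested on simulated data. Motifs and figures used Python 3.11.15 and matplotlib 3.10.9. Alternatives changed the normalization, class filter, weights, variance model, replicate block and cluster rule, and left out each array. Scan dates and slides were not used here. The members and lists were chosen with earlier results of these data known. Values on every array are given for Ifit1, Isg15, Irf7, Cxcl10, Ifih1, Ddx58, Mavs, Tbk1, Ifnar1 and B2m where measured. They are also given for the 3 largest changes and for genes at an unadjusted p under 0.05, in the pathway and marker lists too. Values of other genes, and sequences other than Isg15, were chosen after they were seen.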

Additional observations from a re-analysis of the deposited data

How the results depend on the processing

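Among the 14 alternatives, array weights gave 3 calls among the 34 genes (Ddx58, Irf7 and Tlr3), where 6.7% of all genes were called (1111), and 8 at an unadjusted p under 0.05, where 26.3% of all genes passed. That fit rests on knockdown array 1, with a weight of 33. The other alternatives gave 0 calls among the 34. At an unadjusted p under 0.05 quantile normalization gave 2 genes (Ddx58 and Irf7; 5.38% of all genes), centring within brightness class 1 (Irf7; 4.84% of all genes), and leaving out 1 array at a time 0 to 2 (Ddx58 without knockdown array 2, where 7.53% of all genes passed, and Oas3 and Irf7 without knockdown array 3, where 7.41% did). The median change, 0.0128, was 0.0242 with quantile normalization, 0.0203 with array weights, 0.0074 in the brighter class alone and 0.0191 to 0.0322 without 1 array. In the brighter class alone 7 of 11 genes were above 0 and 11 of 11 had an upper interval end under 1.3-fold. Without 1 array these counts were 22 to 24 and 33 to 34 of 34. Both counts were added after seeing the data. Over all genes 0 to 1 call was left without 1 array, the call being lost with each empty vector array and with knockdown array 1 left out.

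Signs near 0 turned. Tbk1 was at 0.0140 with quantile normalization, 0.0307 with array weights, and -0.0473 to 0.0326 without 1 array. B2m was at 0.0013 with quantile normalization, 3.8e-04 with centring within class, and -0.0296 to 0.0107 without 1 array. Cxcl10 was at 0.0439 with array weights and -0.0634 to 3.3e-04 without 1 array. Ifnar1 was at -4.8e-04 to 0.0253 without 1 array. The causes were not tested. Arrays of the same number did not deviate together (correlations 0.00311, 0.0819 and 0.0364), so the numbers were not taken as pairs. With the replicate block there were 0 calls over all genes (limma, 636 at an unadjusted p under 0.05) and 0 among the 34.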
